A study of Rattus norvegicus with 10 samples.

Results

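Genes of the Wnt pathway were followed in left hippocampi of rats of the TgF344-AD strain, which carries transgenes that cause Alzheimer-like amyloid and tau pathology. The set held every gene symbol of the count table that names a Wnt ligand (Wnt), a Frizzled receptor (Fzd), a secreted Frizzled-related protein (Sfrp), a Dickkopf (Dkk), a Dishevelled (Dvl), an Axin or a TCF factor, together with Lef1, Ctnnb1, Apc, Lrp5, Lrp6 and Wif1. This rule found 48 of the 17168 symbols in the table. They were 18 ligands, 11 receptors and co-receptors, 9 secreted regulators, 7 cytoplasmic transducers and 3 transcription factors. Of the 48, 36 had enough counts to be tested and 12 did not.

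The untreated group was 5 females of this strain on rodent chow. The RG2833 group was 5 females of the same strain on chow with 750 mg RG2833 per kg, eaten for 6 months from 5 months of age. All 10 rats were 11 months old when the tissue was taken, and each library came from a different animal. RG2833 is a small-molecule inhibitor of the histone deacetylases HDAC1 and HDAC3. Both groups carry the transgenes, which in this strain are driven by the mouse prion promoter, and no group without them belongs to the comparison. A blue food dye was used to tell the chows apart, and the labels do not say which chow held it.

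Wnt ligands are secreted lipid-modified proteins that bind Frizzled receptors and the co-receptors Lrp5 and Lrp6. In the canonical branch, Dishevelled then draws Axin to the membrane, the destruction complex of Axin, Apc, glycogen synthase kinase and casein kinase stops marking β-catenin for breakdown, and β-catenin works with TCF/LEF factors on target genes. In the hippocampus the pathway is known for its part in forming the structure before birth, in the birth of dentate granule neurons in the adult and in the upkeep of synapses.

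Dvl3, which encodes a Dishevelled protein, was the 1 member called between the groups. Its mean level rose from 31.9 ± 4.82 to 48.1 ± 4.28 CPM (SD, n = 5 each), a log2 fold change of 0.59 ± 0.11 (SE; edgeR quasi-likelihood test, adjusted p = 0.0148). CPM is the count scaled to a common library total, here after TMM scaling, which evens out the libraries on the assumption that most genes do not change. Called means an adjusted p under 0.05 with adjustment over all 11791 tested genes. The call of Dvl3 was lost with a replicate block in the fit. It was also lost with the ribosomal RNA share, the neuron marker score or the subfield marker score as a covariate. The 1 call in 36 tested members is 2.78%, against 5.08% called among all tested genes, 2.41% higher and 2.67% lower. β-Catenin itself (Ctnnb1) was at 266 ± 28.5 and 260 ± 5.82 CPM, and the fitted log2 differences of the factors Lef1 and Tcf7l2 were 0.0006 and -0.009. Outside the rule, 6 of 57 other tested genes of the pathway were called, among them the kinase gene Gsk3a and the Apc relative Apc2, both higher in RG2833 animals.

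At an unadjusted p under 0.05, 10 of the 36 tested members passed (27.8%), 8 of them higher and 2 lower in RG2833 animals. Among all tested genes 24.5% passed this looser limit, 11.8% higher and 12.7% lower. The 5 RG2833 values lay wholly above the 5 untreated values in 2 members, Dvl3 and Fzd2, which is 5.56% of the tested members against 7.27% of all tested genes separated in either direction, 3.8% higher and 3.47% lower. The median log2 fold change was 0.08 over the tested members and -0.003 over all tested genes, and 22 members had estimates above 0 and 14 below.

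**Figure D1:**
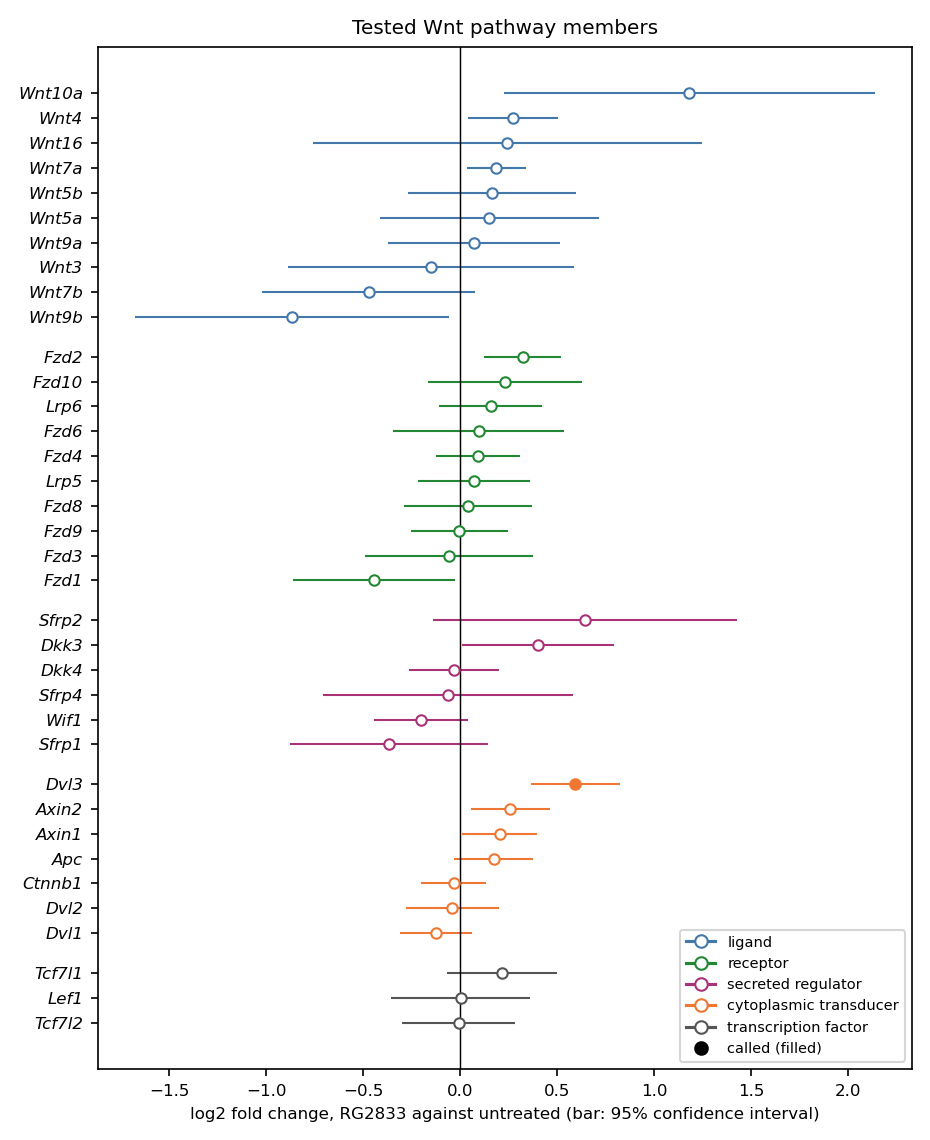
Log2 fold change (RG2833 against untreated, x axis) of each of the 36 tested members, grouped and coloured by role, with the 95% confidence interval as a bar and the 1 called member as a filled point. Dvl3 stands at 0.59 with an interval from 0.36 to 0.82, whereas the widest intervals belong to the ligands Wnt16, Wnt10a and Wnt9b.

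The libraries held between 8764245 and 11311652 counts, so that 3 counts corresponded to 0.268 to 0.343 CPM (counting error only). This level is given for scale and was not used to filter genes. Ribosomal RNA loci took 3.83 ± 1.29% of the counts in untreated and 1.56 ± 0.368% in RG2833 animals, and the summed level of 6 neuron markers was 6126 ± 840 and 7567 ± 560 CPM of all counts (SD, n = 5). Both measures separated the groups without overlap, each with an exact two-sided permutation p of 0.00794, the smallest that 5 animals against 5 allow (adjusted p = 0.0397 over 10 such measures). Most of the neuron sum came from Snap25 (3698 and 4636 CPM) and Slc17a7 (1626 and 2081 CPM). Of the 6 markers 1, Slc17a7, separated the groups by itself, and the estimate of Gad1 was -0.13. The diet and these properties therefore cannot be told apart in these 10 animals, and in bulk tissue fewer cells of a type and less RNA per cell cannot be told apart either. Hippocampal neuron genes were present in each animal: Slc17a7 was between 1266 and 2344 CPM, Prox1, a dentate granule marker, between 11.2 and 69.1 CPM, and Wfs1, a CA1 and subiculum marker, between 63.9 and 605 CPM. Untreated animal 1 also held choroid plexus RNA, with a summed level of 12 markers of 2554 CPM against 9.42 to 55.0 in the other 9 animals.

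Of the 18 ligand genes, 10 were tested and 0 were called. At an unadjusted p under 0.05, 4 passed (Wnt10a, Wnt7a and Wnt4 higher, Wnt9b lower), which is 40% against 24.5% of all tested genes, 11.8% higher and 12.7% lower. By DESeq2 0 of the 10 were called as well. Wnt10a encodes a canonical ligand best known from skin, hair and teeth. Its level was 6.18, 2.20, 1.02, 8.75 and 1.90 CPM in untreated animals 1 to 5, and 6.39, 9.01, 10.1, 7.97 and 12 CPM in RG2833 animals 1 to 5. Untreated animal 4 lay inside the RG2833 range and untreated animal 1 just below it, while the other 3 untreated animals were at or below 2.20 CPM. The log2 fold change was 1.18 ± 0.44 (SE; edgeR adjusted p = 0.125), the largest estimate among the tested members. Without untreated animal 4, the highest of its group, it was 1.72 with an edgeR adjusted p of 0.0147, past the threshold. That fit called 1556 genes of all tested, against 599 with all animals. Wnt10a was called in 1 of the 10 fits that left out 1 animal. Its estimates in these fits ran from 0.92 to 1.72 and its edgeR adjusted p-values from 0.0147 to 0.252. When the fit took in the ribosomal RNA share the sign turned, to -0.52, and with the subfield marker score the estimate was 0.51. Untreated animals 1 and 4 also had the highest untreated levels of the oligodendrocyte gene Mag, 333 and 293 CPM against 119 to 167 CPM in the other 3, and the part of this in the Wnt10a values was not tested.

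Wnt7a, a ligand of neurons and neural progenitors with known effects on synapses, had 37.8, 35.5, 35.7, 34.9 and 34.7 CPM in untreated animals. The RG2833 animals had 36.3, 41.2, 39.8, 44.3 and 41.3 CPM. The groups overlapped through untreated animal 1 and RG2833 animal 1, and the log2 fold change of 0.19 ± 0.07 (SE) did not pass (edgeR adjusted p = 0.13). Wnt4, which acts through several branches of the pathway, had 18.1, 22.5, 25.1, 23.5 and 23.3 CPM in untreated and 31.6, 28.1, 23.3, 25.7 and 27.1 CPM in RG2833 animals. Here 4 of 5 RG2833 animals exceeded every untreated one, and RG2833 animal 3 lay in the untreated range (log2 fold change 0.27 ± 0.11, SE; edgeR adjusted p = 0.148).

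Wnt9b and Wnt7b had lower estimates in RG2833 animals. Wnt9b, a ligand best known from the kidney and face, stood at 1.26, 1.90, 3.06, 0.745 and 2.12 CPM in untreated and 0.859, 0.714, 1.65, 0.931 and 0.837 CPM in RG2833 animals. The estimate was -0.87 ± 0.37 (log2, SE; edgeR adjusted p = 0.175), from between 8 and 33 counts per library. The deposited expected counts of 4 members, Wnt9b, Fzd4, Fzd6 and Dkk1, were not whole in any of the 10 libraries (farther than 0.005 from a whole number). Wnt7b, a ligand with a known role in brain vessels and dendrites, had 13.0, 15.8, 24.6, 10.2 and 27.8 CPM in untreated and 13.2, 13.5, 8.99, 15.7 and 14.6 CPM in RG2833 animals. Untreated animals 3 and 5 were above all others, and the remaining 8 animals lay between 8.99 and 15.8 CPM (-0.47 ± 0.25 log2, SE; edgeR adjusted p = 0.27). The same 2 untreated animals had the highest Dcn, a marker of meningeal fibroblasts, at 25.8 and 30.9 CPM against 4.60 to 13.4 CPM elsewhere. The other genes of this marker list followed in part. Lum was at 27.0 CPM in untreated animal 3, the highest of the 10, and at 9.63 CPM in untreated animal 5, below the 14.6 CPM of untreated animal 1, whereas Col3a1, at 2.32 and 2.22 CPM, was lower in these 2 than in the other 3 untreated animals. The summed level of the 10 meningeal markers was 111 and 95.05 CPM in the 2 animals, against 54.0 to 90.4 CPM in 7 others and 211 CPM in untreated animal 1, where Igf2 gave 150 CPM. Without untreated animal 5 the Wnt7b estimate was -0.27. The part of these levels in the Wnt7b values was not tested.

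The other 5 tested ligands were Wnt5a, Wnt5b and Wnt9a, with estimates of 0.15, 0.16 and 0.07, Wnt16 at 0.24 and Wnt3 at -0.15. Their 95% confidence intervals all included 0. The interval of Wnt3, a ligand that hippocampal astrocytes are known to supply to dentate progenitors, ran from -0.89 to 0.59, so changes of either sign were not resolved at its 5 to 15 counts per library. Wnt16 ranged from 0.229 to 2.30 CPM among untreated animals and from 1.03 to 1.57 CPM among RG2833 animals. Its spread between untreated animals was thus wider than the difference between the group means of 1.13 and 1.37 CPM.

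The 8 untested ligands (Wnt1, Wnt2b, Wnt3a, Wnt6, Wnt8a, Wnt8b, Wnt10b and Wnt11) had few counts in most libraries. Wnt11, a ligand of the non-canonical branches, was the 1 among them whose groups did not overlap, at 0.915, 0.899, 0.834, 0.745 and 0.846 CPM in untreated and 0.382, 0.446, 0.620, 0.207 and 0.523 CPM in RG2833 animals. These values rest on 42 counts in all untreated and 22 in all RG2833 libraries, and with no filter on low counts the log2 estimate was -0.94 ± 0.34 (SE; edgeR adjusted p = 0.134). Wnt3a, the ligand of the cortical hem that is needed to form the hippocampus, had 0.229, 0, 0.0927, 2.70 and 0 CPM in untreated and 0.572, 4.28, 2.48, 0.724 and 0.628 CPM in RG2833 animals. The 3 highest animals (untreated 4, RG2833 2 and RG2833 3) were also the 3 with the highest Wfs1, at 588, 605 and 542 CPM, against 63.9 to 384 CPM in the other 7. Wfs1 was singled out after its values were seen. Of 2 other subfield markers, Mpped1 followed Wnt3a in part and Fibcd1 did not. Mpped1 was highest in RG2833 animal 2 (319 CPM) and stood at 287 and 228 CPM in untreated animal 4 and RG2833 animal 3, while RG2833 animal 4 had 299 and untreated animal 3 258 CPM. Fibcd1 was highest in untreated animal 3 (365 CPM), with 250.6, 326 and 214 CPM in untreated animal 4, RG2833 animal 2 and RG2833 animal 3. Untreated animal 5 and RG2833 animal 4 had 298 and 279 CPM. Wnt8b, another ligand of the hem, had its highest value in RG2833 animal 2 as well (1.69 CPM, 0.458 to 0.942 elsewhere). The part of the dissected subfields in these 2 genes was not tested. Wnt6, the annotated neighbour of Wnt10a in the RefSeq gene table, was at or below 0.310 CPM in every animal.

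**Figure D2:**
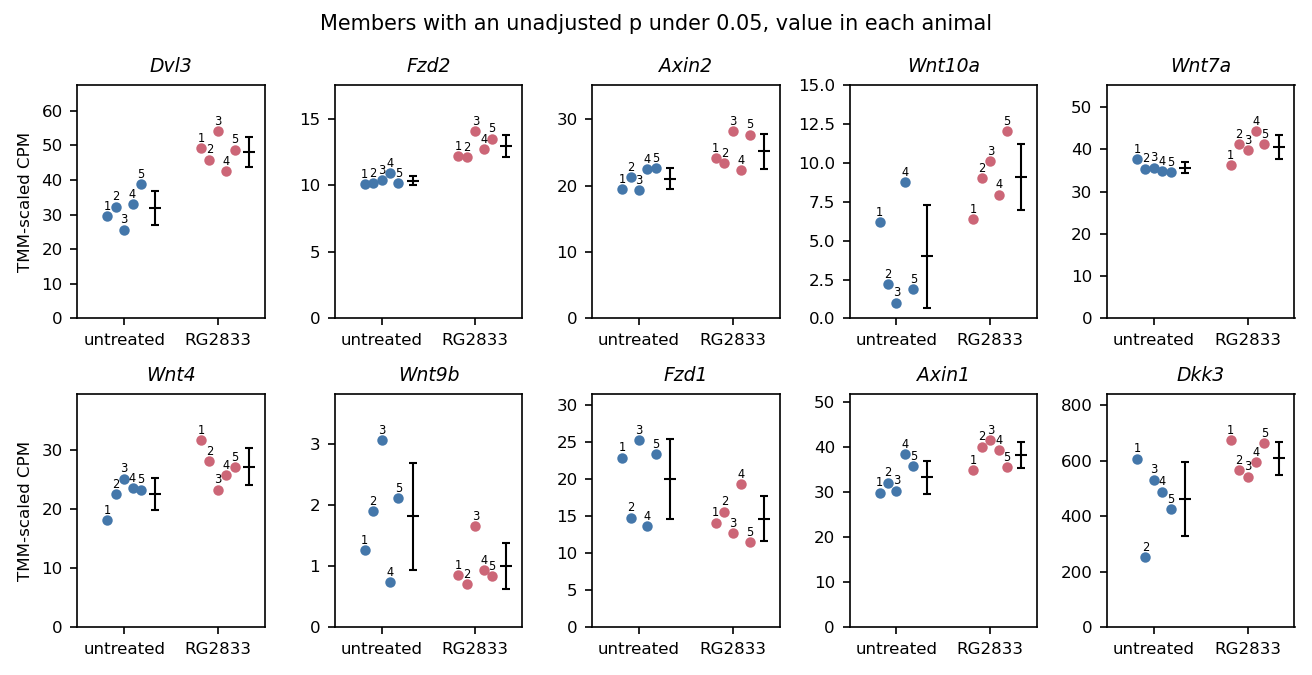
TMM-scaled CPM (y axis, from 0) of the 10 members with an unadjusted p under 0.05, one point per animal numbered by replicate, with the group mean and SD beside the points. Dvl3 and Fzd2 are the 2 panels in which the RG2833 points all lie above the untreated ones.

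Of the 11 receptor and co-receptor genes 10 were tested, 0 were called by edgeR or DESeq2, and 2 had an unadjusted p under 0.05 (20%, against 24.5% of all tested genes). Fzd2, a Frizzled receptor that serves both canonical and non-canonical signalling, came closest. It stood at 10.1, 10.2, 10.4, 10.9 and 10.2 CPM in untreated and at 12.2, 12.1, 14.1, 12.7 and 13.5 CPM in RG2833 animals. Untreated animals differed little from each other, and each RG2833 animal exceeded all of them. The log2 fold change was 0.32 ± 0.09 (SE, 95% confidence interval 0.12 to 0.52) with an edgeR adjusted p of 0.0636. Without untreated animal 4 the edgeR adjusted p was 0.0476, in a fit that called 1556 genes against 599 with all 10 animals. The unadjusted edgeR p of Fzd2 was 0.00605 in that fit and 0.00429 with all animals. Over the 10 fits that left out 1 animal each the adjusted p ran from 0.0476 to 0.146. When the fit took in the ribosomal RNA share the estimate was 0.18 (edgeR adjusted p = 1.00).

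Fzd1, a receptor close to Fzd2 in sequence, had an estimate of the opposite sign. It measured 22.9, 14.8, 25.2, 13.7 and 23.4 CPM in untreated and 14.1, 15.6, 12.7, 19.3 and 11.5 CPM in RG2833 animals. Untreated animals fell into 3 high and 2 low values, and the 2 low ones lay inside the RG2833 range (log2 fold change -0.44 ± 0.19, SE; edgeR adjusted p = 0.177). Whether the effects on Fzd1 and Fzd2 differ was not tested. For the co-receptors that complete the ligand-bound complex, the estimates were 0.16 ± 0.12 for Lrp6 and 0.07 ± 0.13 for Lrp5 (log2, SE).

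The remaining 6 tested Frizzled genes lay between -0.06 (Fzd3) and 0.23 (Fzd10) on the log2 scale, and each of their 95% confidence intervals included 0. Fzd9, a receptor found in the hippocampus, had 21.2 ± 1.97 CPM in untreated and 21.1 ± 3.35 CPM in RG2833-fed rats (SD, n = 5), with an interval of the log2 difference from -0.26 to 0.25. Fzd5, which was not tested, had 0.114, 0.200, 0.278, 0.931 and 0.317 CPM in untreated and 0.859, 0.892, 1.34, 0.931 and 0.628 CPM in RG2833 animals. That is 19 counts against 47 in all, and untreated animal 4 lay in the RG2833 range (1.27 ± 0.47 log2, SE, with no filter on low counts; edgeR adjusted p = 0.141).

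Secreted regulators bind Wnt proteins (Sfrp, Wif1) or act on the co-receptors (Dkk1, Dkk2 and Dkk4). Of the 9 genes, 6 were tested and 0 were called by edgeR or DESeq2, with 1 at an unadjusted p under 0.05 (16.7%, against 24.5% of all tested genes). That gene was Dkk3, a Dickkopf relative that is made by hippocampal neurons and is set apart from the others in its effect on Wnt signalling. Dkk3 measured 608, 254, 532, 489 and 426 CPM in untreated and 674, 567, 543, 596 and 664 CPM in RG2833 animals. Untreated animal 2 was far below the rest, and untreated animal 1 lay among the RG2833 animals (log2 fold change 0.40 ± 0.18, SE; edgeR adjusted p = 0.197). Without untreated animal 2 the estimate was 0.25.

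The low value of untreated animal 2 did not stand alone. The same animal had the lowest values of the 10 for the R-spondin gene Rspo2 (14.4 CPM against 38.0 to 67.3), for Neurod6 (98.7 against 189 to 382) and for Bok (41.0 against 49.7 to 118), the latter a marker of CA3 pyramidal neurons. Its level of C1ql2, a dentate granule marker, was the highest in its group at 147 CPM. Prox1, another dentate granule marker, was at 42.7 CPM, below the 54.9 CPM of untreated animal 4. Slc17a7 (1266 CPM), Snap25 (2858 CPM) and the summed neuron markers (4765 CPM) were also lowest of the 10 in this animal. Rbfox3 and Gad1 were not, and its ribosomal RNA share of 5.36% was the highest. The part of these levels in the difference between the groups was not tested for Dkk3 alone.

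Sfrp2, a Wnt-binding antagonist, had 9.15, 2.30, 5.65, 11.0 and 5.92 CPM in untreated and 8.30, 8.38, 11.5, 6.52 and 18.5 CPM in RG2833 animals. RG2833 animal 5 was the highest of all and untreated animal 2 the lowest, and the others overlapped (log2 fold change 0.64 ± 0.36, SE; edgeR adjusted p = 0.294). Without RG2833 animal 5 the estimate was 0.35. Sfrp1, its relative, stood at 13.0, 8.09, 9.17, 4.28 and 8.67 CPM in untreated and 8.01, 6.15, 6.10, 7.45 and 5.65 CPM in RG2833 animals. Untreated animals 1 and 4 set the upper and lower ends of all 10 values (log2 fold change -0.37 ± 0.24, SE; edgeR adjusted p = 0.356). Without untreated animal 1 the estimate was -0.18. With the score of hippocampal subfield markers as a covariate the sign of the Sfrp1 estimate turned, to 0.35. Wif1, which sequesters Wnt ligands, had 8.92, 7.79, 9.45, 9.59 and 7.93 CPM in untreated and 7.92, 8.03, 7.65, 7.03 and 7.32 CPM in RG2833 animals. Its groups overlapped through untreated animals 2 and 5, and the estimate was -0.20 ± 0.11 (log2, SE; edgeR adjusted p = 0.285).

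Dkk4 and Sfrp4 had estimates of -0.03 and -0.06 with confidence intervals that included 0. The 3 untested genes were Dkk1, Dkk2 and Sfrp5. Dkk1, the Dickkopf whose rise in Alzheimer's disease tissue has drawn most attention, ranged from 0.372 to 1.2 CPM in untreated and from 0.314 to 1.87 CPM in RG2833 animals, with 44 counts in each group. With no filter on low counts the log2 estimate was -0.06 ± 0.50 (SE; edgeR adjusted p = 0.964), so a change of either sign was not resolved. Sfrp5 had 40 counts in untreated animals, 16 of them in animal 1, the animal with choroid plexus RNA, and 13 counts in RG2833 animals.

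All 7 cytoplasmic transducer genes were tested. Dvl3, the 1 called gene, had 29.6, 32.3, 25.7, 32.9 and 38.8 CPM in untreated animals 1 to 5 and 49.1, 45.8, 54.1, 42.5 and 48.8 CPM in RG2833 animals 1 to 5. The lowest RG2833 value lay above the highest untreated one. Leaving out 1 animal at a time kept Dvl3 past the threshold in all 10 fits, with log2 fold changes between 0.52 and 0.67 and edgeR adjusted p-values between 0.00315 and 0.0483. Of 5 covariates tried one at a time, 2 kept the call, the choroid plexus score with a log2 fold change of 0.59 (edgeR adjusted p = 0.0367) and the thalamus and habenula score with 0.58 (0.0212). The call was lost with the other 3: the ribosomal RNA share gave 0.35 (edgeR adjusted p = 1.00), the neuron marker score 0.49 (0.174) and the subfield marker score 0.55 (0.438). With the replicate block it was 0.60 (edgeR adjusted p = 0.0501, not called). Under the ribosomal RNA, neuron and subfield fits 2, 5 and 5 genes of all tested were called.

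Its paralogs Dvl1 and Dvl2 take the same place in the pathway. Dvl1 was at 98.0 ± 12.5 CPM in untreated and 89.8 ± 4.97 CPM in RG2833-fed rats (SD, n = 5), a log2 difference of -0.13 with a 95% confidence interval from -0.31 to 0.06. Dvl2 was at 18.9 ± 1.84 and 18.4 ± 2.53 CPM, a log2 difference of -0.04 (-0.28 to 0.20). The interval of Dvl3, 0.36 to 0.82, lay above both, and a test of the difference between the 3 genes was not made.

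The Axin and Apc genes encode the scaffold of the destruction complex. Axin2 is also a widely used target gene of β-catenin and TCF, made in response to the pathway as a negative feedback. It measured 19.4, 21.3, 19.4, 22.5 and 22.6 CPM in untreated and 24.1, 23.5, 28.2, 22.3 and 27.7 CPM in RG2833 animals. The groups overlapped through RG2833 animal 4, which lay just below the 2 highest untreated animals (log2 fold change 0.26 ± 0.09, SE; edgeR adjusted p = 0.117). The estimate was 0.05 when the fit took in the ribosomal RNA share and 0.17 with the subfield marker score. Axin1, the constitutive scaffold, was at 29.9, 32.1, 30.3, 38.3 and 35.6 CPM in untreated and 34.9, 40.0, 41.4, 39.3 and 35.6 CPM in RG2833 animals, and did not pass (0.20 ± 0.09, SE; edgeR adjusted p = 0.187). Apc, the tumour suppressor that holds β-catenin in the complex, had 285, 377, 318, 299 and 344 CPM in untreated and 355, 344, 343, 354 and 432 CPM in RG2833 animals. Its 4 lower RG2833 values lay inside the untreated range (0.17 ± 0.09, SE; edgeR adjusted p = 0.283), and without RG2833 animal 5, the highest, the estimate was 0.11.

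Ctnnb1 encodes β-catenin, the transducer that the complex controls by protein breakdown. Its transcript stood at 243, 260, 274, 243 and 312 CPM in untreated and 266, 260, 254, 255 and 267 CPM in RG2833 animals. The RG2833 values all lay inside the untreated range, and the log2 difference of -0.03 had a 95% confidence interval from -0.20 to 0.13. These are transcript levels, and protein was not measured.

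The sequences before the annotated starts of Dvl3 and Axin2 are shown because Dvl3 was the called member and Axin2 the member known as a target of the pathway. Each is the 250 bases before the start in the RefSeq annotation of GRCr8, at chr11:93886904-93887153 (minus strand) for Dvl3 and chr10:94398535-94398784 (plus strand) for Axin2, written 5′ to 3′ on the strand of the gene. The counts were made on rn6, another build, and no coordinate was carried between the builds. Capitals mark the core bound by TCF/LEF factors, searched as ATCAAAG and TTCAAAG on both strands.
Dvl3: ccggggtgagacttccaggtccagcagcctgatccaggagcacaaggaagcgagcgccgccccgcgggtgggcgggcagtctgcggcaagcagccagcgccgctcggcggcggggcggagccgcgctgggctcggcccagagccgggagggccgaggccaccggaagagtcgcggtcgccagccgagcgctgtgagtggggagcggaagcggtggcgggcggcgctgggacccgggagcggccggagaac
Axin2: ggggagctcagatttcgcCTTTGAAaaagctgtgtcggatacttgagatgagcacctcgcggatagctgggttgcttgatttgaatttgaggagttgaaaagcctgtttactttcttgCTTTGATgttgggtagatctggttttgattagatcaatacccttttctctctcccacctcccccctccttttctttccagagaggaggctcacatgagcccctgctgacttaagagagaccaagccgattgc
Axin2 holds 2 cores, both on the opposite strand, TTCAAAG from -232 to -226 and ATCAAAG from -132 to -126 relative to the start. Dvl3 holds 0 in this window, which is 76.8% G and C with 33 CpG dinucleotides, against 47.6% and 5 CpG for Axin2. Of the 48 members 34 had a sequence in the RefSeq table, and 3 of the 34 (8.82%; Axin2, Dkk1 and Wnt8a) held a core, against 7.58% of all 27457 sequences of this length. A match of these letters is a description and shows no binding.

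The 3 transcription factor genes were tested and 0 were called by edgeR or DESeq2, with 0 at an unadjusted p under 0.05. Tcf7l1, the factor of the family that mostly represses, had 10.6, 11.2, 7.32, 8.47 and 9.52 CPM in untreated and 9.73, 10.5, 12.1, 11.0 and 11.3 CPM in RG2833 animals. The groups overlapped (0.21 ± 0.13 log2, SE; edgeR adjusted p = 0.333). Without untreated animal 3, the lowest, the estimate was 0.13. Tcf7l2, which in the brain is highest in the thalamus, was at 9.95 ± 1.06 and 9.88 ± 1.60 CPM, and Lef1 at 4.48 ± 0.780 and 4.48 ± 0.537 CPM (SD, n = 5). Their 95% confidence intervals ran from -0.30 to 0.28 and from -0.36 to 0.36 on the log2 scale, so moderate changes of either sign were not resolved for these 2 genes.

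The rest of the pathway was read from a list of 74 further genes, of which 63 were in the table and 57 were tested. Of the 57, 6 were called (10.5%, against 5.08% of all tested genes), 5 higher and 1 lower in RG2833 animals. At an unadjusted p under 0.05, 17 passed (29.8%, against 24.5% of all tested genes), 15 of them higher, a direction in which 11.8% of all tested genes passed. The median log2 fold change was 0.09, against -0.003 over all tested genes, with 40 estimates above 0. The groups did not overlap in 7 of the 57 (12.3%, against 7.27% of all tested genes), among them Rspo2, an R-spondin that amplifies Wnt signals, which did not pass (edgeR adjusted p = 0.162).

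The destruction complex and its kinases gave 2 of the 6 calls, from 12 tested genes (16.7%, against 5.08% of all tested genes). Gsk3a encodes glycogen synthase kinase 3α, which phosphorylates β-catenin and many other proteins. Its level was 236, 234, 245, 275 and 227 CPM in untreated and 329, 338, 318, 342 and 323 CPM in RG2833 animals. The lowest RG2833 value, 318 CPM, lay well above the highest untreated value, 275 CPM, and the rise of 0.44 ± 0.07 (log2, SE; edgeR adjusted p = 0.00828) was called in all 10 fits with 1 animal left out. Its paralog Gsk3b had an estimate of 0.31 ± 0.19 (SE; edgeR adjusted p = 0.331). Apc2, a relative of Apc expressed in neurons, had 192, 192, 189, 232 and 233 CPM in untreated and 292, 269, 270, 281 and 326 CPM in RG2833 animals. It rose by 0.47 ± 0.09 (log2, SE; edgeR adjusted p = 0.0177) and was called in 8 of the 10 fits, not without untreated animal 3 or RG2833 animal 5 (adjusted p = 0.0567 and 0.0544).

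Gsk3a is shown because it had the smallest p among the called pathway genes. It was also chosen after its TCF/LEF core had been seen: it was the 1 of 6 called genes with a RefSeq sequence, Dvl3 included, that held one (16.7%), against 4.95% of the 8826 tested genes with a sequence and 7.58% of all sequences. This count of 1 shows nothing about the called genes. The 250 bases before its start lie at chr1:89953515-89953764 (GRCr8, minus strand), with the core TTCAAAG in capitals from -229 to -223 on the strand of the gene.
Gsk3a: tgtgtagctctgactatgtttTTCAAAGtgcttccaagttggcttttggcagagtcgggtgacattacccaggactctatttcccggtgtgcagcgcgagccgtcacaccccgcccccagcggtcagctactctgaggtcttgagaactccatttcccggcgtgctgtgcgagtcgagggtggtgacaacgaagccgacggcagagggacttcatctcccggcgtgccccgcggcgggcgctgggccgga

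Nuclear cofactors and feedback regulators gave 3 further calls. They were 1 of 11 tested cofactors (9.09%) and 2 of 9 tested targets and feedback regulators (22.2%), against 5.08% of all tested genes. Bcl9l, a coactivator that tethers Pygopus to β-catenin, had 34.7, 51.8, 43.7, 53.6 and 56.2 CPM in untreated and 65.2, 70.9, 73.4, 60.9 and 79.6 CPM in RG2833 animals, without overlap (0.54 ± 0.12 log2, SE; edgeR adjusted p = 0.0328). Nkd2, a Dishevelled-binding antagonist, was the 1 gene called lower: it had 6.86, 8.09, 9.82, 8.75 and 8.89 CPM in untreated and 6.01, 6.69, 5.58, 5.90 and 4.81 CPM in RG2833 animals (-0.55 ± 0.14 log2, SE; edgeR adjusted p = 0.0417). Rnf43, a ubiquitin ligase that removes Frizzled receptors from the cell surface, had 7.21, 4.39, 4.63, 5.86 and 6.56 CPM in untreated and 9.06, 6.60, 10.4, 10.0 and 9.94 CPM in RG2833 animals. Its groups overlapped through RG2833 animal 2 and untreated animal 1 (0.69 ± 0.18 log2, SE; edgeR adjusted p = 0.0444).

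Ligand secretion gave the last call, 1 of 3 tested genes (33.3%, against 5.08% of all tested genes). Porcn, the acyltransferase that attaches the lipid Wnt proteins need for secretion, had 98.7, 84.8, 97.8, 105 and 86.0 CPM in untreated and 131, 106, 120, 115 and 114 CPM in RG2833 animals. The highest untreated value was just below the lowest RG2833 value (0.31 ± 0.08 log2, SE; edgeR adjusted p = 0.0449). Wls, the carrier that takes Wnt proteins to the surface, had an estimate of -0.10 ± 0.08 (edgeR adjusted p = 0.477). Of these last 4 called genes, Bcl9l was called in 5 of the 10 fits that left out 1 animal, Nkd2 and Rnf43 in 2 each and Porcn in 1.

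The next 2 genes of the list by p were Ryk and Pygo2. Ryk, a Wnt receptor of the non-canonical branches, had 22.9, 28.9, 27.4, 31.3 and 28.2 CPM in untreated and 33.01, 36.5, 34.2, 32.4 and 35.8 CPM in RG2833 animals, without overlap, and missed the threshold (0.31 ± 0.09 log2, SE; edgeR adjusted p = 0.0623). Pygo2, the Pygopus partner of Bcl9l, had 71.4, 69.0, 63.7, 61.2 and 59.2 CPM in untreated and 81.7, 75.6, 77.7, 76.7 and 69.7 CPM in RG2833 animals, and overlapped through untreated animal 1 and RG2833 animal 5 (0.23 ± 0.07 log2, SE; edgeR adjusted p = 0.0765). DESeq2 called both, with adjusted p-values of 0.0255 for Ryk and 0.0349 for Pygo2. It called 8 of the 57 genes in all and 1286 of all 11791 tested genes, against 6 and 599 by edgeR. Planar cell polarity genes gave 0 calls among 9 tested by edgeR or DESeq2, and 3 of them, Prickle1, Prickle2 and Vangl1, had an unadjusted p under 0.05, all higher (33.3%, against 11.8% of all tested genes that passed in this direction and 24.5% in either). Of the 9 tested genes listed as known targets and feedback, 2 were called (22.2%, against 5.08% of all tested genes), Rnf43 higher and Nkd2 lower. Myc (0.34 ± 0.16) and Ccnd1 (-0.21 ± 0.10) of the same genes did not pass, with edgeR adjusted p-values of 0.214 and 0.222.

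**Figure D3:**
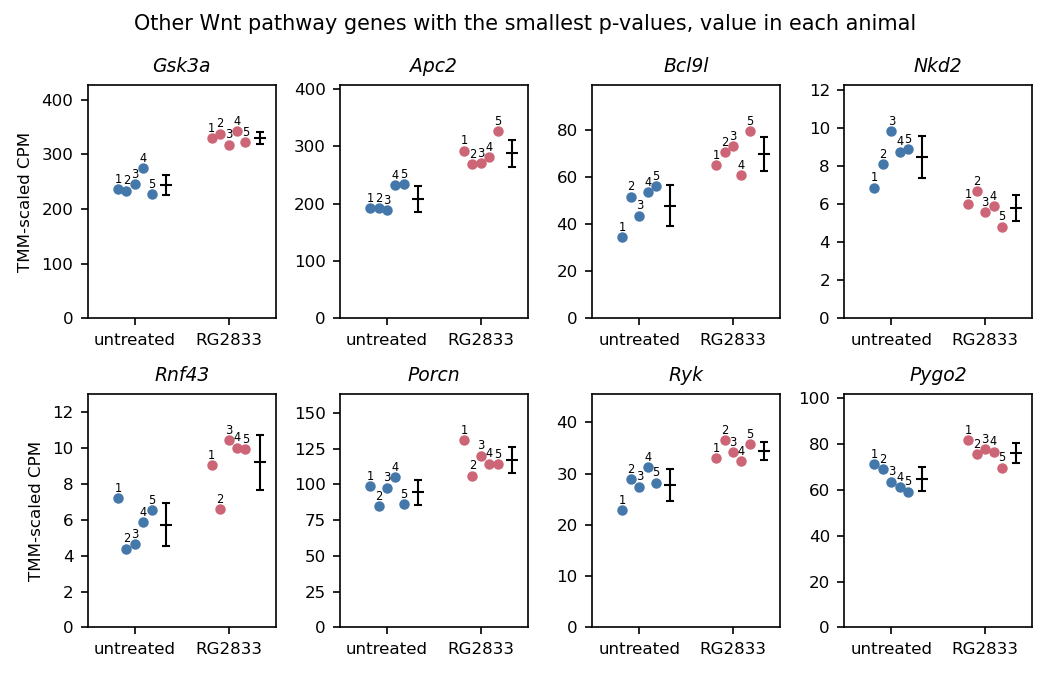
TMM-scaled CPM (y axis, from 0) of the 8 further pathway genes with the smallest p-values, one point per animal numbered by replicate, with the group mean and SD beside the points. Gsk3a, Apc2, Bcl9l, Porcn and Ryk do not overlap and are higher in RG2833 animals, Nkd2 does not overlap and is lower, and Rnf43 and Pygo2 overlap.

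The call of each of these 7 genes, Dvl3 included, was lost with each of 3 covariates, the ribosomal RNA share, the neuron marker score and the subfield marker score. Their log2 fold changes under the neuron score were 0.45 for Gsk3a, 0.33 for Apc2, 0.48 for Bcl9l, -0.61 for Nkd2, 0.47 for Rnf43 and 0.30 for Porcn. With the ribosomal RNA share in the fit they were 0.41 for Gsk3a, 0.26 for Apc2, 0.47 for Bcl9l, -0.30 for Nkd2, 0.21 for Porcn and -0.05 for Rnf43, the last with its sign turned. With the subfield score they were 0.34, 0.38, 0.38 and -0.62 for Gsk3a, Apc2, Bcl9l and Nkd2, 0.69 for Rnf43 and 0.28 for Porcn.

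Among the members the ribosomal RNA share also turned the sign of the estimates of Axin1 (-0.000403), Wnt7b (0.054) and Sfrp2 (-0.81). It took Dkk3 to 0.07, Tcf7l1 to 0.07, Wnt9b to -0.26 and Sfrp1 to -0.17, all nearer to 0, and Wnt4 to 0.57 and Apc to 0.32, both farther from it. The subfield score gave 0.02 for Axin1, -0.19 for Fzd1, 0.14 for Sfrp2, -0.11 for Wnt7b and -0.39 for Wnt9b. The neuron score gave 0.07 for Dkk3, 0.16 for Sfrp2, 0.34 for Tcf7l1, -0.70 for Fzd1 and -0.86 for Wnt7b, and the choroid plexus score -0.19 for Sfrp1. None of these members was called in these fits.

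**Figure D4:**
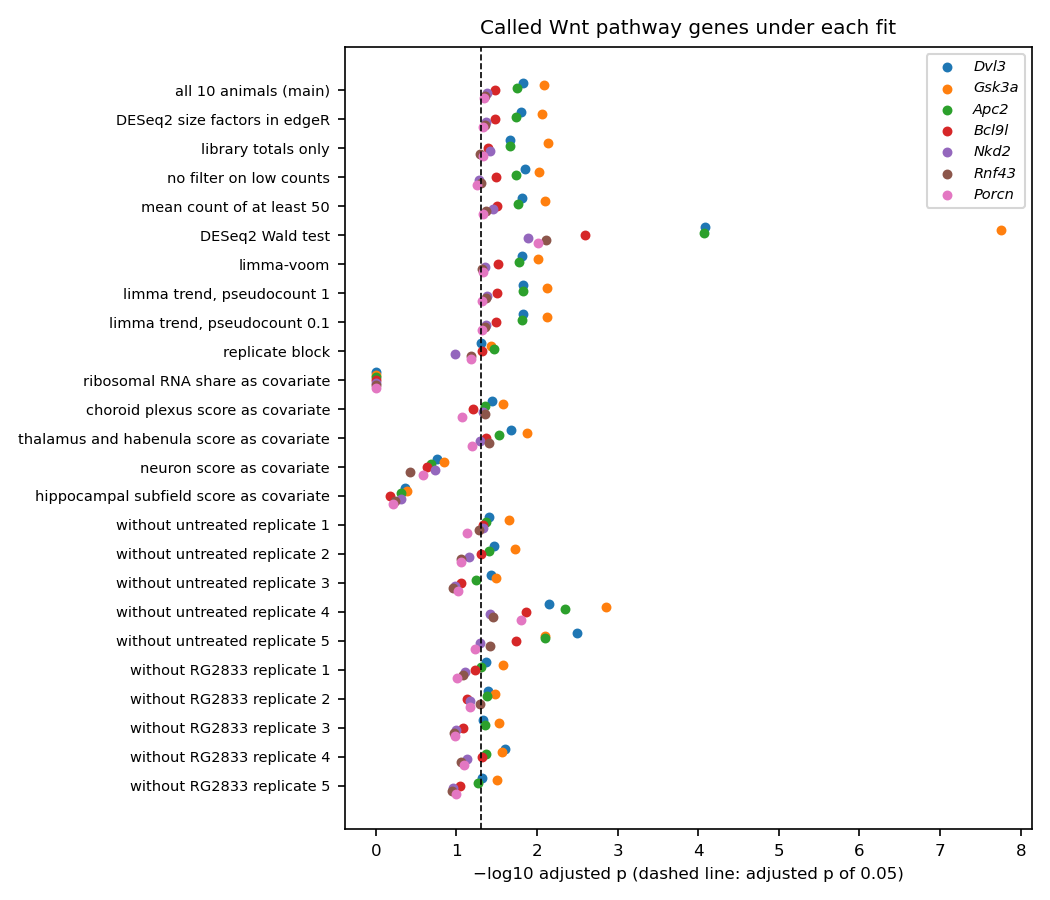
Adjusted p of the 7 called pathway genes as −log10 (x axis) under each fit (rows), with the threshold of 0.05 as a dashed line. Dvl3 and Gsk3a lie to the right of the line in each fit that leaves out 1 animal, and all 7 genes lie to its left with the ribosomal RNA share, the neuron score or the subfield score as a covariate.

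Levels of other cell types were set beside the members. The summed endothelial marker level was 531 ± 80.7 in untreated and 436 ± 38.6 CPM in RG2833 animals (exact two-sided permutation p = 0.0476, adjusted p = 0.159), and all 8 measured markers had estimates below 0. Astrocyte, oligodendrocyte, microglia, meningeal, thalamic, choroid plexus and subfield levels gave exact permutation p-values between 0.0952 and 0.913. Single markers of 4 lists were called by edgeR. They were 1 of 5 microglial, 1 of 10 thalamic, 1 of 4 choroid plexus and 1 of 6 neuronal genes tested. Among all tested genes 5.08% were called, and no marker of the other lists was. The microglial gene Aif1 (-0.74, edgeR adjusted p = 0.0496), Calb2 of the thalamic list (-1.08, 0.0354) and Prlr of the choroid plexus list (-0.86, 0.0394) were lower in RG2833 animals. The neuronal gene Rbfox3 (0.57, 0.0400) was higher. Estimates were above 0 for 1 of the microglial, 5 of the thalamic, 0 of the choroid plexus and 5 of the neuronal genes tested. Thalamic and habenular markers reached 151 CPM in untreated animal 1 and 137 in RG2833 animal 3, against 76.2 to 101 in the other 8, while the thalamic gene Gbx2 was at or below 0.114 CPM in every animal. Dvl3 was called without either of these 2 animals, with edgeR adjusted p-values of 0.039 and 0.0472. Sostdc1, a secreted antagonist on the list and also a choroid plexus marker, was at 42.1 CPM in untreated animal 1 and at or below 1.14 CPM in the other 9.

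**Figure D5:**
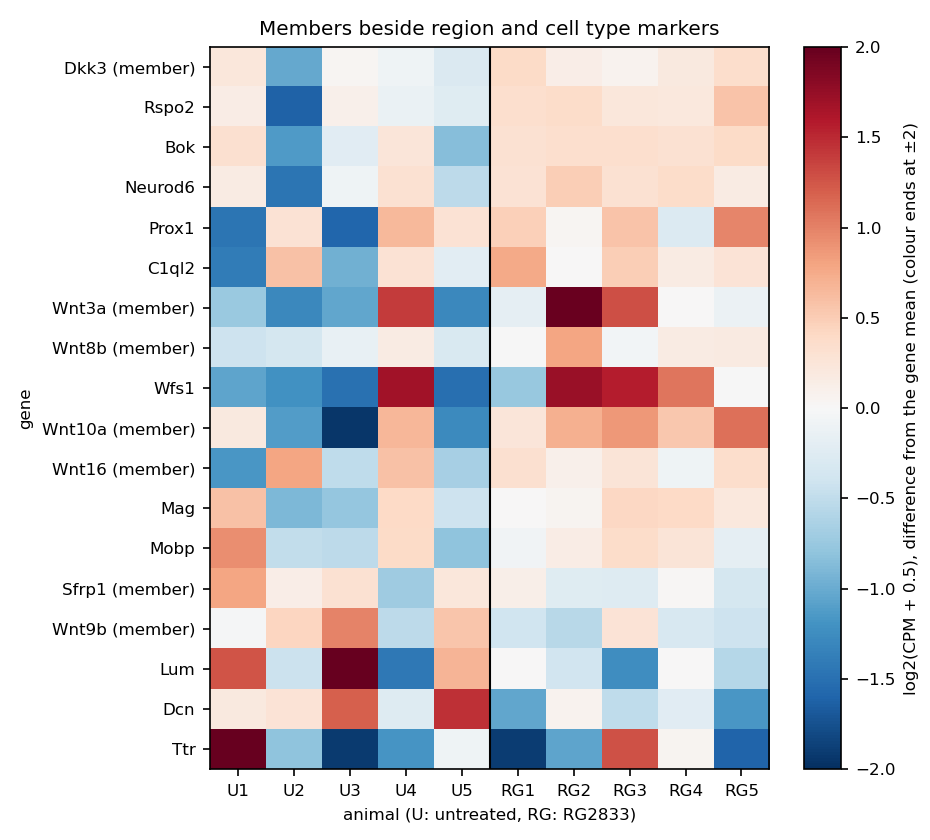
Colour shows log2(CPM + 0.5) minus the mean of the gene over the 10 animals, for 7 members, Rspo2 and 10 region or cell type genes (rows) in each animal (columns). Untreated animal 2 is low for Dkk3, Rspo2, Bok and Neurod6, and Wnt3a is high in untreated animal 4 and RG2833 animals 2 and 3, where Wfs1 is high.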

How the data were processed

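The authors deposited RSEM expected counts per gene, not normalized, with the samples' titles as column names, for 10 libraries. Per the labels' protocols, RNA was isolated with a column kit and strand-specific mRNA libraries were made. Per the submitters' processing notes, bcl2fastq 2.17, Bowtie2 2.1.0, RSEM 1.2.15, edgeR and the build rn6 were used; the annotation and the strand setting of the counting are not given in the sources used here. A second table, a normalized signal that the authors deposited after TMM scaling, was used for the limma trend alternatives.

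Expected counts were rounded to whole numbers. Genes were filtered with edgeR's filterByExpr by group and tested by the quasi-likelihood F-test of edgeR 4.0.16 in R 4.3.3 (TMM scaling, no covariate, all 10 libraries) with Benjamini-Hochberg adjustment over all 11791 tested genes. The standard error is the absolute log2 fold change over √F, and intervals are 95%. CPM values are TMM-scaled and relative to the tested genes' totals. Levels of different genes were not compared, since no lengths were used. Marker levels, sums of the CPM of listed genes over all counts, were tested with exact two-sided permutations.

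The members, the further pathway list and the marker lists were chosen with earlier results of these data known. Every member is accounted for; full values are given for members that were called, for the 16 tested members with the smallest p-values and for those whose groups did not overlap, and for the 8 further pathway genes with the smallest p-values. Other genes named were chosen after their values were seen. The 20 within-group pairs of libraries differed by more than sampling noise (chi-square per degree of freedom 4.60 to 36.3), so each counted as 1 animal. Test scripts were tested on simulated data. Alternatives were DESeq2 1.42.0, limma 3.58.1, other scalings and filters, a replicate block, marker scores and the ribosomal RNA share as covariates, and leaving out each animal; the neuron and subfield scores were added after the data were seen. RefSeq sequences and gene order came from GRCr8.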

Additional observations from a re-analysis of the deposited data

Results flagged for a closer look

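Each member, the 8 further pathway genes named and 5 library or marker levels were looked at in both diets, and of these 122 groups of 5 animals 10 held 1 animal far from the other 4, where chance gives about 6.1 (1 in 20). For members with higher counts these were Apc at 432 CPM in RG2833 animal 5 (343 to 355 in the other 4), Dvl2 at 22.2 CPM in untreated animal 2 (17.5 to 18.4) and Fzd4 at 17.9 CPM in RG2833 animal 3 (21.4 to 22.8), the last a gene whose deposited counts were not whole in any library. For members with lower counts they were Wnt3a at 2.70 CPM in untreated animal 4 (0 to 0.229), Fzd5 at 0.931 CPM in untreated animal 4 (0.114 to 0.317), Dkk2 at 0.465 CPM in untreated animal 4 (0.0999 to 0.185), Wnt8b at 1.69 CPM in RG2833 animal 2 (0.723 to 0.942) and Wnt9b at 1.65 CPM in RG2833 animal 3 (0.714 to 0.931). Untreated animal 4 thus held 3 of the 8 member values, all of them high. They rested on few counts: 29 for Wnt3a (0 to 2 in the other 4), 10 for Fzd5 (1 to 3) and 5 for Dkk2 (1 to 2). The choroid plexus marker level was 2554 CPM in untreated animal 1 (12.5 to 33.9), and the thalamus and habenula level 137 CPM in RG2833 animal 3 (76.8 to 87.8).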

How the results depend on the processing

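Dvl3 was the 1 member called under other scalings, other filters, DESeq2, limma-voom, limma trend and the choroid plexus or thalamus score as a covariate. Members called were 2 at an adjusted p under 0.1 (Dvl3 and Fzd2), 0 with the ribosomal RNA share, 0 with the neuron score and 0 with the subfield score as a covariate, and 1 to 3 when 1 animal was left out (3 without untreated animal 4: Dvl3, Fzd2 and Wnt10a). Further pathway genes called were 8 by DESeq2, 0 under the same 3 covariates and 1 to 12 when 1 animal was left out (12 without untreated animal 4, 1 without untreated animal 3 or RG2833 animal 5). The choroid plexus score left 4, with Bcl9l and Porcn lost. The thalamus score, and the fit with no filter on low counts, left 4 each, with Nkd2 and Porcn lost. With library totals only 5 were called, and Rnf43 was lost. Over all genes the count was 1286 by DESeq2, 1466 at an adjusted p under 0.1, 2 with the ribosomal RNA share, 5 with the neuron score, 5 with the subfield score, 164 with the choroid plexus score, 359 with the thalamus score, and 98 to 1556 when 1 animal was left out (98 without RG2833 animal 5, 1556 without untreated animal 4). The ribosomal RNA share turned the sign of Wnt10a (-0.52), Axin1 (-0.000403), Wnt7b (0.054), Sfrp2 (-0.81) and Rnf43 (-0.049), and the subfield score that of Sfrp1 (0.35); the cause was not tested. The median of the tested members stayed between 0.03 and 0.10 over these fits.

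Replicate numbers did not pair the animals: same-numbered deviations correlated between -0.319 and 0.151, and 1 of 5 animals matched its own number best. With the replicate block, 180 genes, 0 members (Dvl3: edgeR adjusted p = 0.0501) and 3 further pathway genes (Apc2, Bcl9l and Gsk3a) were called. The ribosomal RNA share differed by -2.26 percentage points and the endothelial level by -95.5 CPM (exact permutation p = 0.0625 for both, the smallest this block allows).

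Leaving out 1 animal moved the difference in marker level (CPM) from -117.6 to -71.3 for endothelial, -53.0 to -15.8 for meningeal (-53.0 without untreated animal 4), -632.5 to 2.83 for choroid plexus and -15.8 to 7.96 for thalamic markers, the last 2 turning sign without untreated animal 1. Depth limits the 12 untested members, which had at most 48 counts in a library.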
